A study of Mus musculus with 12 samples.

Results

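Pxdc1 is a gene on mouse chromosome 13 that encodes a protein named for its PX domain, and it was followed here in 12 RNA sequencing libraries of lung group 2 innate lymphoid cells (ILC2s). It was taken as the 1 row with that symbol among the 18601 genes listed for ILC2s of mice lacking LAIR-1 (KO) and of wild-type (WT) mice. The same symbol gave 1 row among the 21361 genes listed for WT ILC2s sorted by surface LAIR-1. The gene was chosen by its difference in CPM between the KO and WT libraries, so that difference is described below without a test. The sorted libraries took no part in that choice and were tested, although earlier results of these data were known.

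The KO group held 3 libraries (13, 14 and 15) and the WT group 3 (9, 10 and 11). The fraction without surface LAIR-1 (LAIR-1-) held 3 libraries (7, 8 and 10) and the fraction with it (LAIR-1+) 3 (1, 2 and 3), both from WT animals. Every group came from C57BL/6 mice aged 8 weeks that were given recombinant IL-33, a cytokine that activates ILC2s, by the nose in 3 doses of 0.5 µg each. After sorting, all cells were cultured for 24 hours with IL-2 and with IL-7, both at 10 ng/mL. The labels do not say how the KO allele was made, whether the WT libraries were sorted for LAIR-1, or whether replicates were separate animals. P-values therefore measure the spread between these libraries, which may be technical.

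PX domains are protein modules that bind phosphoinositides, the phosphorylated membrane lipids that mark endosomes and the plasma membrane. Most proteins that carry one are sorting nexins, which shape and sort endosomal membranes, and others are kinases, phospholipases or subunits of the phagocyte oxidase. ILC2s are tissue lymphocytes that secrete type 2 cytokines in response to IL-33. Collagens bind LAIR-1, a surface receptor that restrains immune cells.

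Pxdc1 spans positions 34627834 to 34653486 on the minus strand of mm10 chromosome 13, a length of 25653 bases. The GENCODE M21 annotation of that build gives it 4 transcripts, of which 1 is protein coding, with 5 exons and 2684 bases, while 2 are marked for nonsense-mediated decay and 1 is a processed transcript without a coding frame. The exons of all 4 together cover 2914 bases. The annotated antisense gene Gm15908 overlaps the 5' end of Pxdc1 by 564 bases on the plus strand. The use of strand in counting is not given in the sources used here, so reads from that stretch cannot be assigned to one of the genes. The deposited values are per gene and do not separate the transcripts.

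Library totals ran between 18061470 and 28290487 estimated counts. The 11 defining ILC2 markers, among them Gata3, Il1rl1, Il7r and Il5, were detected in all 4 groups, and their levels summed to 9915 to 16413 CPM (counts scaled to a common library total) per library. Lair1, the targeted gene, was at 0.427, 0 and 3.28 CPM in KO 13, 14 and 15, against 3.75, 11.1 and 7.66 CPM in WT 9, 10 and 11. The library labelled KO 15 was thus close to WT 9 in Lair1, with 67 and 70 counts.

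Pxdc1 was lower in KO than in WT ILC2s. It had 6770, 5563 and 5785 counts in KO 13, 14 and 15, against 14758, 12460 and 14759 counts in WT 9, 10 and 11. After scaling by TMM this was 321, 283 and 283 CPM in the KO libraries, against 791, 689 and 739 CPM in the WT libraries. The highest KO library lay below the lowest WT library by more than the whole range of either group, and 7.97% of all genes tested were lower without overlap. The mean was 296 ± 21.8 CPM in KO and 740 ± 50.8 CPM in WT (SD, n = 3 each), which is 60.0% lower in KO, with a log2 fold change of -1.32 ± 0.09 (SE). In these bulk libraries, fewer cells with Pxdc1 and less Pxdc1 mRNA per cell cannot be told apart.

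**Figure D1:**
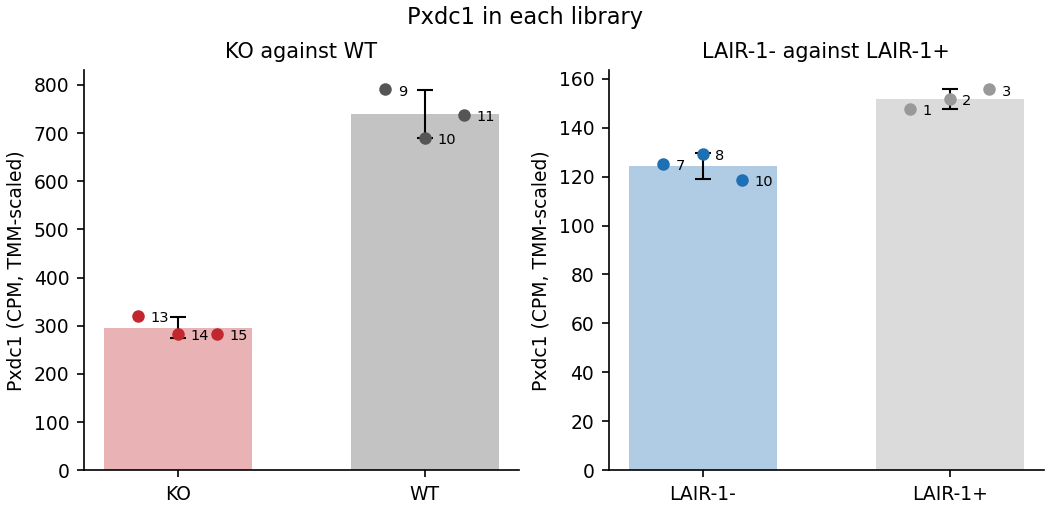
Pxdc1 in each library, in CPM scaled by TMM within each deposited table (the 2 panels have different scales). Bars are means, error bars SD and points the 3 libraries of a group, labelled by library number; the KO libraries lie between 283 and 321 CPM and the WT libraries between 689 and 791 CPM, and the LAIR-1- libraries between 119 and 129 CPM and the LAIR-1+ libraries between 148 and 156 CPM.

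The difference between KO and WT held its size under every scaling tried. The log2 fold change lay between -1.33 and -1.32 under median-of-ratios scaling, library totals, 3 other filters on low counts, DESeq2 and both limma fits. It was -1.40 when Pxdc1 was set against the geometric mean of 9 housekeeping genes (Actb, Gapdh, B2m and others), whose own median change was 0.08. Leaving out each library in turn gave -1.39 to -1.27.

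Markers of other cell types were looked up beside this result. Of the epithelial list of 5 genes, 4 were present here (Epcam, Sftpc, Scgb1a1 and Krt8). They summed to 17.9 to 29.9 CPM in KO and 49.1 to 125 CPM in WT, so the sum moved in the same direction as Pxdc1 without overlap. Only Epcam set the groups apart, at 16.9, 17.3 and 25.4 CPM in KO 13, 14 and 15, against 49.1, 52.1 and 55.9 CPM in WT 9, 10 and 11. Scgb1a1, a club cell gene, was at 0, 6.17 and 0 CPM in KO 13, 14 and 15, against 0, 0.443 and 58.8 CPM in WT 9, 10 and 11. Krt8 was at 0.0948, 6.42 and 0 CPM in those KO libraries, against 0, 0 and 10.2 CPM in the WT ones. Sftpc had 0.901 CPM in KO 13 and 0 in the rest. Of 7 myeloid markers only 3 were listed here (Adgre1, Cd68 and Cd14), and they summed to 7.24 to 7.39 CPM in KO and 6.31 to 19.5 CPM in WT. Pecam1, the 1 endothelial marker listed, was at 24.5 to 44.4 CPM in KO and 18.9 to 22.6 CPM in WT. The part of these genes in the difference of Pxdc1 was not tested.

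Among genes of similar level, Pxdc1 stood apart in the size of its change. Of the 591 other tested genes within 2-fold of its mean level, 0 differed as much between KO and WT in either direction, and their median absolute log2 fold change was 0.14. Its spread within groups was ordinary: the SD of log2 CPM was 0.10, against a median of 0.12, and 34.5% of these genes had a smaller one. These values used the contrast that picked the gene and are a description only. Over the whole table, 0.00706% of 14164 genes had an edgeR adjusted p under 0.05 between KO and WT. That share is 1 gene, Pxdc1 itself, which the gene lists below leave out. A count of 0 edgeR calls in those lists was therefore fixed beforehand and cannot show that their genes were unchanged. This contrast chose Pxdc1, so its own call is no test of it. The number of genes called was also unstable, at 0 with any 1 library left out and 297 by DESeq2. The coefficient of variation between replicates fitted by edgeR was 0.505 among KO and WT libraries, against 0.135 among LAIR-1- and LAIR-1+ libraries.

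**Figure D2:**
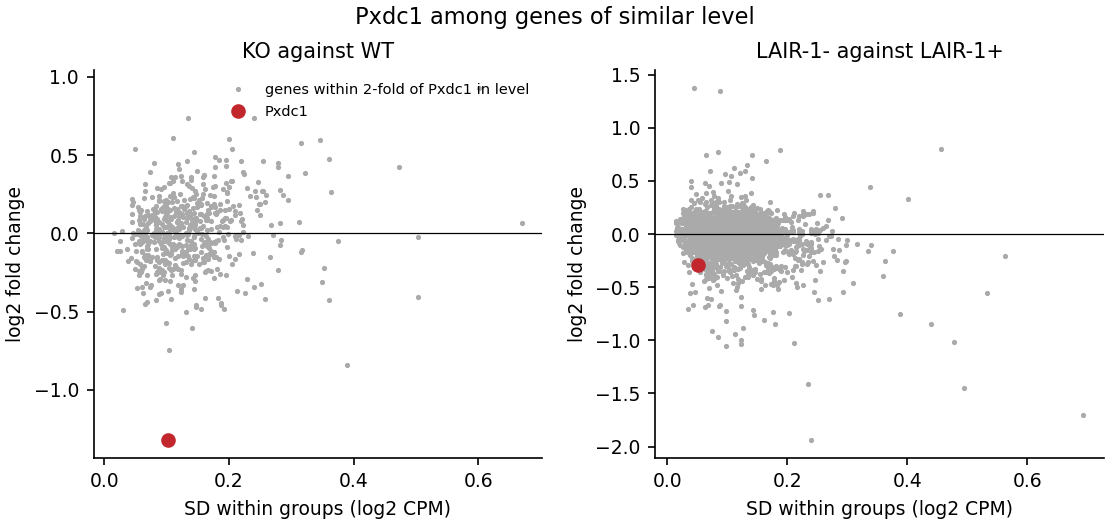
Log2 fold change (vertical axis) against the SD of log2 CPM within groups (horizontal axis) for Pxdc1 (red) and the genes whose mean level is within 2-fold of it (grey; 591 genes at left, 2713 at right). Pxdc1 lies below all grey points for KO against WT, at -1.32, and among the more tightly measured genes for LAIR-1- against LAIR-1+, at -0.29.

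The genes that came next in the same contrast, by the order of edgeR's p, were higher in KO in 4 of 5 cases. Those 4 had log2 fold changes of 1.39 to 1.56, larger in size than the -1.32 of Pxdc1, at lower levels of expression. Tnfsf8, the CD30 ligand gene, averaged 74.8 ± 5.17 CPM in KO and 27.6 ± 2.31 CPM in WT. Il1r2, the decoy receptor for IL-1, averaged 257 ± 2.54 CPM in KO and 97.7 ± 17.4 CPM in WT. Tnfrsf9, the costimulatory receptor CD137, averaged 230 ± 28.9 CPM in KO and 78.8 ± 15.1 CPM in WT. Adap1, which encodes a phosphoinositide-binding GTPase-activating protein, averaged 52.7 ± 0.79 CPM in KO and 17.9 ± 2.91 CPM in WT. Lpcat2, which makes platelet-activating factor, averaged 39.3 ± 3.01 CPM in KO and 96.7 ± 11.4 CPM in WT. Each of these had KO and WT libraries that did not overlap (SD, n = 3 each), as had 16.2% of all genes tested in either direction. They were chosen by this contrast, so no test is given for it.

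The sorted fractions gave a test of Pxdc1 in libraries that had not chosen it. Pxdc1 was lower in LAIR-1- than in LAIR-1+ ILC2s. It had 125, 129 and 119 CPM in LAIR-1- 7, 8 and 10, against 148, 152 and 156 CPM in LAIR-1+ 1, 2 and 3. All 3 LAIR-1- libraries lay below all 3 LAIR-1+ libraries, as 11.3% of tested genes did. The mean was 124 ± 5.38 CPM in LAIR-1- and 152 ± 3.97 CPM in LAIR-1+ (SD, n = 3 each). The log2 fold change was -0.29 ± 0.07 (SE), which is 1.22-fold lower in LAIR-1-. This passed the edgeR quasi-likelihood test over all genes (adjusted p = 0.0429), where 4.01% of 14261 genes passed in either direction and 2.71% passed as lower.

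That call was close to the threshold. The log2 fold change stayed between -0.32 and -0.26 with any 1 library left out, but the call was lost in 5 of these 6 fits. When a LAIR-1- library was left out, the edgeR adjusted p was 0.161 for library 7, 0.0449 for library 8 and 0.137 for library 10. When a LAIR-1+ library was left out, it was 0.126 for library 1, 0.122 for library 2 and 0.121 for library 3. DESeq2, which called 6.00% of genes here, gave an adjusted p of 0.00805, and edgeR gave 0.0618 without a filter on low counts, 0.0594 with library totals alone and 0.218 with all 12 libraries in 1 fit.

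Markers of other cell types also differed between the sorted libraries. Summed myeloid markers were at 6.30 to 9.79 CPM in LAIR-1- and 26.6 to 36.4 CPM in LAIR-1+, all 7 genes being listed. The 5 epithelial genes summed to 24.0 to 31.7 CPM in LAIR-1- and 31.5 to 104 CPM in LAIR-1+, and they did not move together. Epcam was higher in LAIR-1-, at 24.0 to 31.6 CPM, against 18.8 to 20.7 CPM in LAIR-1+, while Krt8 was at 0 in LAIR-1- and 7.67 to 8.80 CPM in LAIR-1+, and Scgb1a1 at 0 in LAIR-1- and 3.13 to 76.8 CPM in LAIR-1+. Pecam1 was at 38.5 to 40.6 CPM in LAIR-1- and 23.4 to 26.1 CPM in LAIR-1+. Summed T cell markers were at 136 to 158 CPM in LAIR-1- and 114 to 132 CPM in LAIR-1+. The part of all these in the difference of Pxdc1 was not tested. The mRNA of Lair1, which encodes the surface protein used for the sort, was at 0.577 to 1.95 CPM in LAIR-1- and 8.71 to 12.4 CPM in LAIR-1+.

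Of 2713 other genes within 2-fold of the level of Pxdc1, 213 differed more (7.85%), and 11.3% had a smaller SD within groups than the 0.05 of Pxdc1. The comparisons of KO against WT and of LAIR-1- against LAIR-1+ share no library, and the log2 fold changes of Pxdc1 in them were -1.32 ± 0.09 and -0.29 ± 0.07 (SE).

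The level of Pxdc1 also differed between the tables. In order of their means the groups were WT (740 CPM), KO (296 CPM), LAIR-1+ (152 CPM) and LAIR-1- (124 CPM), and no group overlapped the next. The WT mean was 4.87 times the LAIR-1+ mean, although both came from WT animals, and the KO mean was 2.38 times the LAIR-1- mean. Of 8829 genes whose mean log2 CPM reached 3 in both tables, 1.30% had a ratio of WT to LAIR-1+ at least as high, and the median log2 ratio was 0.03. The tables were normalised separately and list different numbers of genes (18601 and 21361). They also give Gm47127 different gene types, lincRNA beside KO and WT and lncRNA beside the sorted fractions, so their annotations may differ. What else differed between the experiments is not given in the sources used here. These levels are therefore set side by side without a test. Across the 12 libraries Pxdc1 took 0.0120% to 0.0790% of all counts.

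Genes that best track Pxdc1 were ranked by the root mean square difference between their log2 CPM and that of Pxdc1 in the 6 KO and WT libraries, each gene centred on its own mean. A gene equal in all 6 libraries would score 0.67, and the median of the 8740 genes ranked was 0.71. The 10 closest scored 0.15 to 0.24. In order, these were Lpcat2, Prnp (the prion protein), Pes1 (a ribosome assembly factor), Bmp7 (a growth factor), Dennd6a (an activator of Rab GTPases), Calca (which encodes calcitonin gene-related peptide), Stambpl1 (a deubiquitinase), Ppp1r21, Zfp653 and Cep78 (a centrosome protein). By construction all were lower in KO, by log2 fold changes between -1.30 and -0.88. As an example, Prnp was at 80.1, 58.9 and 76.4 CPM in KO 13, 14 and 15, against 155, 141 and 147 CPM in WT 9, 10 and 11. This order is loose: 3 to 7 of the 10 stayed among the closest 10 with 1 library left out. The lowest of these counts, 3, came without KO 13 or without WT 11. The count was 4 without KO 15, 5 without KO 14 and 6 without WT 9. A ranking by correlation, which ignores the size of the change, shared 0 of the 10.

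The sorted libraries did not choose these genes, and 2 of the 10 were called there, both lower in LAIR-1-, beside 2.71% of all genes called lower. Lpcat2 was at 14.5, 17.0 and 16.9 CPM in LAIR-1- 7, 8 and 10, against 33.3, 27.5 and 28.3 CPM in LAIR-1+ 1, 2 and 3 (log2 fold change -0.88 ± 0.13, edgeR adjusted p = 0.00215). Prnp was at 51.8, 49.1 and 50.6 CPM in those LAIR-1- libraries, against 118, 95.2 and 97.8 CPM in the LAIR-1+ ones (-1.04 ± 0.10, adjusted p = 0.000144). For both, the gap between the groups was wider than the range of either group. The other 8 did not pass, and 5 of the 10 had an unadjusted p under 0.05, beside 15.4% of all genes. Bmp7, at -0.29 ± 0.09, and Stambpl1, at -0.34 ± 0.11, had differences near that of Pxdc1. Pes1 was at 0.02 ± 0.08 and Dennd6a at 0.29 ± 0.12. The median of the 10 was -0.18 and 7 lay below 0, beside a median of 0.01 over all genes tested.

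Over all 12 libraries, with each gene centred within its own table, the closest were Bmp7, Stambpl1, Calca, Pes1 and Amdhd2, an enzyme of amino sugar metabolism, with scores of 0.16 to 0.19. This ranking used the sorted libraries too, so the sorted values of these genes are a description. Bmp7 was at 45.7, 54.5 and 42.6 CPM in KO 13, 14 and 15, against 99.1, 113 and 93.3 CPM in WT 9, 10 and 11. In the sorted cells Bmp7 was at 48.9, 47.8 and 45.3 CPM in LAIR-1- 7, 8 and 10, against 57.4, 53.1 and 62.9 CPM in LAIR-1+ 1, 2 and 3.

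The 5 genes most opposite to Pxdc1 in the KO and WT libraries were Mt1 (a metal-binding metallothionein), Tnfsf8, Il1r2, Slc37a2 (a sugar phosphate transporter) and the type 2 cytokine Il13. Il13 was at 104, 127 and 129.9 CPM in KO 13, 14 and 15, against 55.5, 49.8 and 58.4 CPM in WT 9, 10 and 11. Between the sorted fractions 0 of the 5 passed in edgeR, beside 4.01% of all genes. An unadjusted p under 0.05 was found for 3, beside 15.4% of all genes, and these 3 differed in direction. Slc37a2 and Il13 were higher in LAIR-1-, at log2 fold changes of 0.41 and 0.37, and Il1r2 was lower, at -0.22. The values of Il1r2 and Slc37a2 were the lowest and highest of the 5.

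**Figure D3:**
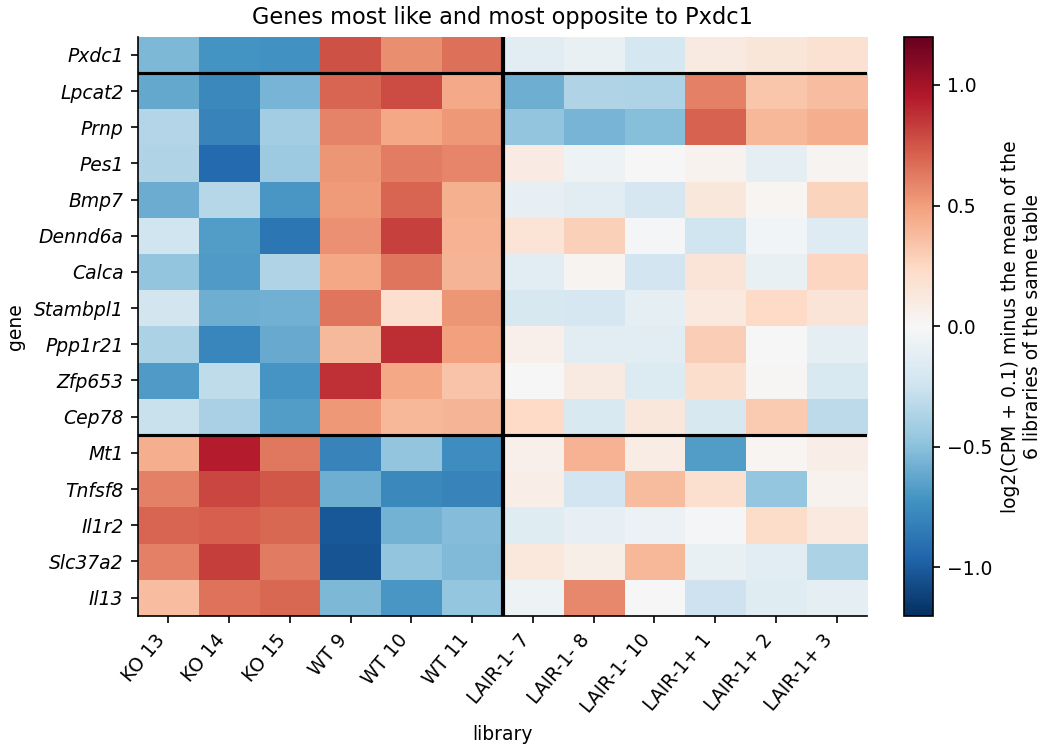
Log2(CPM + 0.1) of Pxdc1 (top row), the 10 genes closest to it and the 5 most opposite (lower block), minus the mean of the 6 libraries of the same table, with KO and WT libraries left of the line and LAIR-1- and LAIR-1+ libraries right of it. The 10 closest genes are below their mean in KO and above it in WT by choice; on the right only Lpcat2 and Prnp passed the test.

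Pxdc1 aside, 48 genes with a PX domain were listed, and 42 were tested between KO and WT: edgeR called 0 at an adjusted p under 0.05, 3 had an unadjusted p under 0.05 (8.37% of all genes), and DESeq2 called 1 of the 35 to which it gave an adjusted p (3.04% of all such genes). Their median log2 fold change was -0.12, beside 0.00 over all genes, and 5 of 42 had groups without overlap, beside 16.2% of all genes. Snx17, a sorting nexin that recycles membrane receptors, was at 101, 108 and 90.2 CPM in KO 13, 14 and 15, against 142, 155 and 122 CPM in WT 9, 10 and 11 (log2 fold change -0.49 ± 0.13, edgeR adjusted p = 0.402). It was the gene called by DESeq2 (adjusted p = 0.0482). Snx20, a sorting nexin of blood cells, averaged 108 ± 6.60 CPM in KO and 133 ± 6.01 CPM in WT, and Snx6, a retromer component, 206 ± 22.5 CPM in KO and 169 ± 16.2 CPM in WT. Snx4 averaged 140.0 ± 20.4 CPM in KO and 106 ± 23.5 CPM in WT, with overlap. None of these passed in edgeR.

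Between the sorted fractions 46 PX domain genes were tested, and 1 rose and 2 fell in LAIR-1- cells, beside 1.30% of all genes called higher and 2.71% called lower. Arhgap32 fell to 10.4 ± 1.59 CPM in LAIR-1-, against 21.3 ± 4.08 CPM in LAIR-1+ (log2 fold change -1.04 ± 0.17, edgeR adjusted p = 0.00543). Ncf4, the oxidase subunit p40phox, fell to 233 ± 17.4 CPM in LAIR-1-, against 290 ± 10.3 CPM in LAIR-1+ (-0.32 ± 0.07, adjusted p = 0.0334). Snx9, which acts in endocytosis, rose to 7.27 ± 1.72 CPM in LAIR-1-, against 2.77 ± 0.795 CPM in LAIR-1+ (1.39 ± 0.27, adjusted p = 0.0127). Sh3pxd2a, a podosome scaffold, did not pass, at 0.210 CPM in LAIR-1- and 0.772 CPM in LAIR-1+. The median of the 46 was -0.01. Leaving out library 10 of LAIR-1- or library 1 of LAIR-1+ reduced the 3 calls to 1.

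Per kilobase of exon, Pxdc1 was among the most abundant PX domain genes. Its level had rank 3 of 43 in KO, with 102 CPM per kb, and rank 1 of 43 in WT, with 254 CPM per kb. In KO it stood behind Snx3 (190 CPM per kb) and Ncf4 (158 CPM per kb). It had rank 6 of 47 in LAIR-1-, with 42.7 CPM per kb, and rank 4 of 47 in LAIR-1+, with 52.1 CPM per kb. Snx3, a sorting nexin of early endosomes, was at 190 CPM per kb in KO, 181 in WT, 190 in LAIR-1- and 184 in LAIR-1+.

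**Figure D4:**
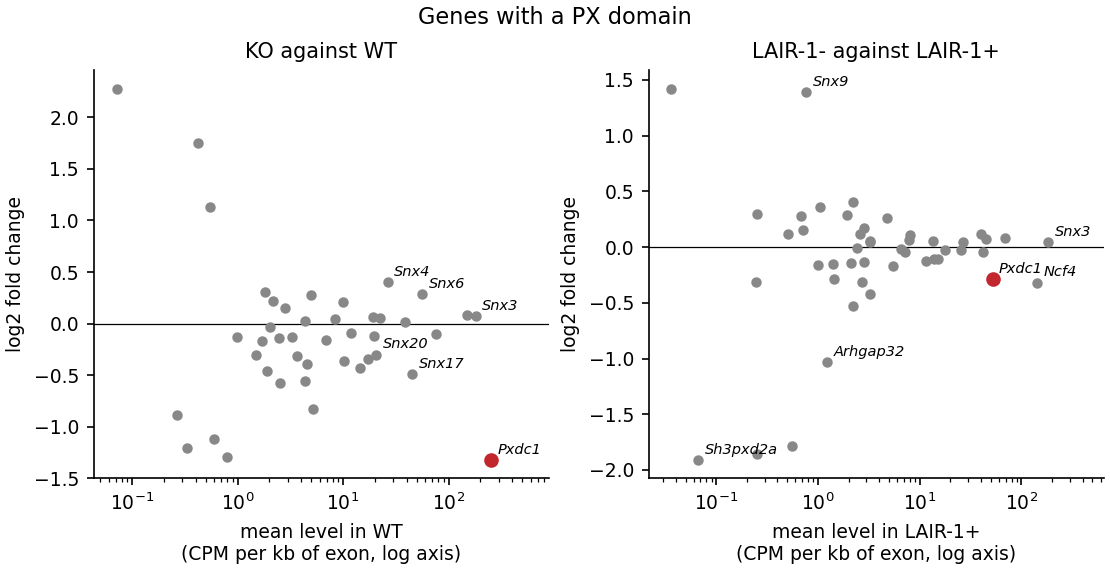
Log2 fold change (vertical axis) of the tested PX domain genes against their mean level in WT (left) or LAIR-1+ (right), in CPM per kb of exon on a log axis, with Pxdc1 in red. At left Pxdc1 has the highest level, 254 CPM per kb, and lies at -1.32; at right it lies at -0.29 beside Ncf4 at -0.32.

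Enzymes that make, remove or read phosphoinositides were counted as the nearest pathway, together with regulatory subunits and adaptors such as Pik3r1, Pik3ap1 and Vac14. The whole list is called phosphoinositide enzymes for short. Between KO and WT, edgeR called 0 of 51, and 5 had an unadjusted p under 0.05, beside 8.37% of all genes. DESeq2 called 1 of the 45 with an adjusted p, beside 3.04% of all such genes. Their median log2 fold change was 0.06. The gene called by DESeq2 was Pi4k2b, a phosphatidylinositol 4-kinase, which averaged 59.2 ± 12.2 CPM in KO and 31.9 ± 4.29 CPM in WT (0.89 ± 0.21, edgeR adjusted p = 0.316, DESeq2 adjusted p = 0.0109). Pik3cg, the gamma catalytic subunit of PI 3-kinase, averaged 206 ± 28.6 CPM in KO and 130 ± 33.7 CPM in WT. Synj1 and Mtmr2, lipid phosphatases, averaged 70.0 ± 2.16 and 37.7 ± 6.11 CPM in KO, against 33.9 ± 20.6 and 55.0 ± 10.5 CPM in WT. None of these passed in edgeR.

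Of 51 genes of this list tested between the sorted fractions, 3 fell and 0 rose in LAIR-1- cells, beside 2.71% of all genes called lower and 1.30% called higher. Inpp4b, which removes a phosphate from PI 3-kinase products, fell to 102 ± 12.5 CPM in LAIR-1-, against 172 ± 10.3 CPM in LAIR-1+ (-0.76 ± 0.09, edgeR adjusted p = 0.000818). Pip5k1c fell to 99.2 ± 3.32 CPM in LAIR-1-, against 121 ± 0.586 CPM in LAIR-1+ (adjusted p = 0.0411), and Pi4ka to 84.4 ± 7.71 CPM in LAIR-1-, against 110 ± 10.2 CPM in LAIR-1+ (adjusted p = 0.0452). Inpp5b, at 100.5 ± 4.67 CPM in LAIR-1- and 121 ± 2.71 CPM in LAIR-1+, did not pass. The median log2 fold change was -0.11, beside 0.01 over all genes tested, with 41 of 51 below 0. Leaving out library 7 or 8 of LAIR-1-, or library 1 or 2 of LAIR-1+, reduced the 3 calls to 1.

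FoxO transcription factors are restrained by PI 3-kinase signalling, and 21 FoxO factors and genes linked to them were tested in either comparison. Between KO and WT edgeR called 0, and 4 had an unadjusted p under 0.05, beside 8.37% of all genes. DESeq2 called 1 of the 12 with an adjusted p (3.04% of all such genes), the IL-7 receptor gene Il7r, which averaged 177 ± 24.0 CPM in KO and 120 ± 6.97 CPM in WT. The median log2 fold change was -0.21, beside 0.00 over all genes. Between the sorted fractions 3 of 21 rose and 2 fell in LAIR-1- cells, beside 1.30% of all genes called higher and 2.71% called lower. This list, like the other gene lists, was drawn up with earlier results of these data known, so its share of calls is a description only. Lef1 rose to 26.4 ± 0.424 CPM in LAIR-1-, against 9.24 ± 0.818 CPM in LAIR-1+, S1pr1 to 15.6 ± 3.73 CPM in LAIR-1-, against 4.13 ± 0.972 CPM in LAIR-1+, and Ccr7 to 23.0 ± 3.55 CPM in LAIR-1-, against 10.7 ± 0.980 CPM in LAIR-1+. Txnip, an inhibitor of glucose uptake, fell to 82.8 ± 7.45 CPM in LAIR-1-, against 133 ± 10.7 CPM in LAIR-1+, and Sesn3, a stress-induced sestrin, also fell (-0.67 ± 0.12, edgeR adjusted p = 0.00763). The median of the 21 was -0.04, and 5 passed with any 1 library left out.

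The 5 tested genes on each side of Pxdc1 on chromosome 13 were, in the KO and WT table, Tubb2b, Psmg4, Slc22a23, Gm40909, Gm47127, Prpf4b, Gm16984, Eci2, Cdyl and Rpp40. Between KO and WT, edgeR called 0 of these 10, with 1 at an unadjusted p under 0.05, beside 8.37% of all genes. DESeq2 called 0 of the 4 to which it gave an adjusted p (Psmg4, Prpf4b, Eci2 and Cdyl), beside 3.04% of all such genes. Prpf4b, a splicing kinase whose gene lies 247 kb away between lower coordinates, averaged 110 ± 32.2 CPM in KO and 102 ± 28.2 CPM in WT. Eci2, a fatty acid oxidation enzyme, averaged 51.1 ± 10.9 CPM in KO and 53.8 ± 9.34 CPM in WT. Gm47127, a noncoding RNA at 17.0 kb by the same measure, averaged 1.57 CPM in KO and 1.97 CPM in WT. Tubb2b, a tubulin gene, had 34, 24 and 42 counts in KO 13, 14 and 15, against 0 in each WT library. That is at least 30.9-fold higher in KO against a floor of 3 counts over the WT group, for counting error only, and its edgeR adjusted p was 0.229, with none given by DESeq2. Its near-identical paralog Tubb2a lies beside it, and how reads shared by them were counted is not given in the sources used here.

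Between the sorted fractions the 10 neighbours, which there included Bphl, Tubb2a, Gm36839 and Gm48706, gave 0 calls in edgeR and DESeq2. Over all genes edgeR called 4.01% and DESeq2 6.00%. Of the neighbours 0 had an unadjusted p under 0.05, beside 15.4% of all genes. Prpf4b averaged 102 ± 4.67 CPM in LAIR-1- and 95.0 ± 11.2 CPM in LAIR-1+. Cdyl, a chromodomain gene, averaged 33.6 ± 1.79 CPM in LAIR-1- and 37.7 ± 1.83 CPM in LAIR-1+. It was the 1 of the 10 neighbours whose groups did not overlap. Of all genes tested, 11.3% were lower in LAIR-1- without overlap, so this does not set Cdyl apart.

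**Figure D5:**
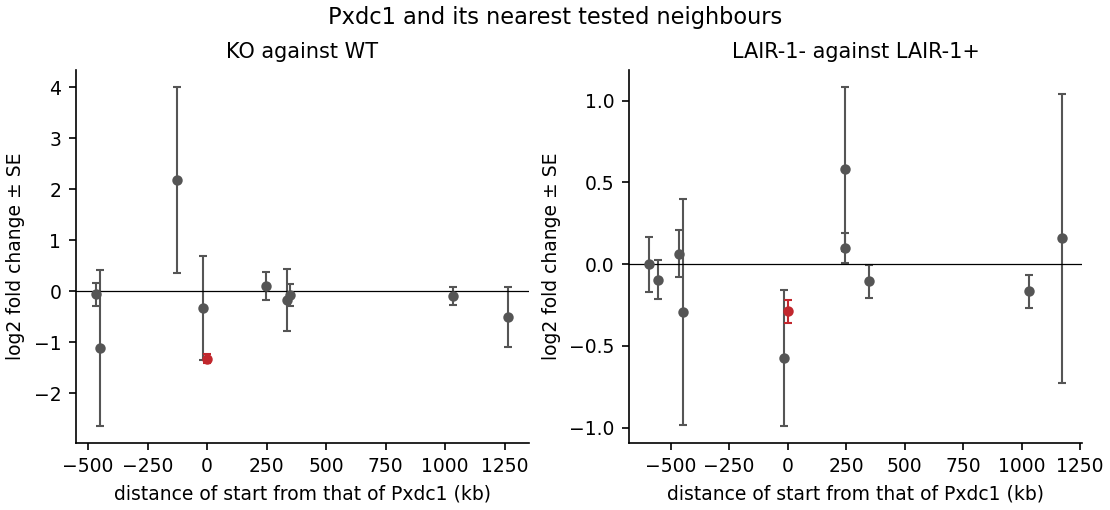
Log2 fold change ± SE of Pxdc1 (red) and its nearest tested neighbours (grey) against the distance of their lower coordinate from that of Pxdc1, in kb. Pxdc1 lies at -1.32 for KO against WT and at -0.29 for LAIR-1- against LAIR-1+; Tubb2b, without a count in WT, is left out at left.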

How the data were processed

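Per the submitters' processing notes, bcl2fastq 2.17.1.14, Partek and STAR 2.5.3a were used with mm10; no source used here names the counting tool or annotation. The authors deposited estimated counts per gene (47.9% and 44.4% of values not whole within 0.001) and the same genes as CPM. The deposited CPM columns sum to 868953 to 900057. Every sample column was used.

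Groups came from the labels. Estimated counts were rounded, and each table was analysed alone with edgeR 4.0.16 in R 4.3.3 (filterByExpr, TMM, quasi-likelihood F test), adjusted by Benjamini-Hochberg over all genes tested at 0.05. Log2 fold changes have KO over WT, or LAIR-1- over LAIR-1+, with SEs from the F statistic. Levels are CPM scaled by TMM. Likeness used log2 CPM with a prior count of 2 and genes with a mean of at least 3. Of 20 symbols turned into dates, 17 were restored by identifier. Exon lengths came from GENCODE M21.

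Named were Pxdc1, Lair1, the next 5 genes by p, the 10 closest and 5 most opposite, the 5 closest over 12 libraries, the neighbours, and up to 4 genes per list with the smallest p, predicted genes left out of the rankings. Sesn3 was added so that every called FoxO-linked gene is named. Marker genes were looked up by list. The gene, its lists and a filter at 50 CPM were chosen with earlier results of these data known. Alternatives were other scalings and filters, DESeq2 1.42.0, limma 3.58.1 on the deposited CPM, 1 fit of all 12 libraries and leaving out each library. The test was tried on simulated counts.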

Additional observations from a re-analysis of the deposited data

Results flagged for a closer look

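Among the genes named, 3 had libraries that did not overlap in either comparison and moved in opposite directions. The difference between the comparisons was not tested for them. Of 49 named genes present in both tables, 17 lacked overlap in both. Many of the 49 were named for their difference in 1 of the comparisons, which raises that count. No share of all genes lacking overlap in both is given here, so the 17 cannot be read as many or few. Dennd6a, among the genes closest to Pxdc1, had a log2 fold change of -1.18 in KO against WT and 0.29 in LAIR-1- against LAIR-1+. Il1r2, among the most opposite, was at 1.39 in KO against WT and -0.22 in LAIR-1- against LAIR-1+. Pi4k2b was at 0.89 in KO against WT and -0.21 in LAIR-1- against LAIR-1+.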

How the results depend on the processing

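The groups compared share no replicate number, so no pairs could be formed and the tests were unpaired. The labels do not say whether LAIR-1- and LAIR-1+ libraries came from the same animals. For Pxdc1 no alternative changed a direction. The sorted difference lost its call with library totals alone (-0.26), without a filter (-0.29), with limma-trend at an offset of 0.1 (-0.27) and with all 12 libraries in 1 fit (-0.29). It ranged between -0.32 and -0.26 with 1 library left out, adjusted p = 0.0449 to 0.161. The count of genes called between KO and WT was 1, and was 297 by DESeq2, 267 with all 12 libraries, 5 at a mean of at least 5 CPM, 55 at 50 CPM and 0 with any library left out. The 572 called between the sorted fractions became 54 with all 12 libraries, 250 at 50 CPM and 333 to 516 with 1 library left out, being 374 without library 7 of LAIR-1-, and 333 or 369 without library 1 or 2 of LAIR-1+. With all 12 libraries in 1 fit, 1 PX domain, 1 phosphoinositide enzyme, 1 FoxO-linked and 1 neighbouring gene were called between KO and WT. Between the sorted fractions that fit called 0 PX domain, 1 phosphoinositide enzyme and 1 FoxO-linked gene. The number of genes tested in that fit is not given here, so these counts cannot be read as many or few. Which genes it called is not given here either. Between KO and WT, DESeq2 called 1 gene of each list but the neighbours, among genes to which it gave an adjusted p (3.04% of all such genes). Between the sorted fractions DESeq2 called 6 of 51 phosphoinositide enzymes, beside 6.00% of all genes. Their calls there were 1 with library totals, 1 with limma-trend, 1 without a filter, and 1 to 3 with 1 library left out. PX domain calls were 1 at 50 CPM and 1 to 3 with 1 library left out, and FoxO-linked calls 1 at 50 CPM. The 2 sorted calls among the 10 closest and 5 most opposite genes became 1 at 50 CPM, which tests fewer genes. Of the 10 closest genes, 0 were shared with a ranking by correlation, 4 with a filter at a mean log2 CPM of 5, and 3 to 7 with 1 library left out. The causes were not tested.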
